A study of Mus musculus with 12 samples.

Results

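The 45 genes described here encode parts of the motile cilium: the dynein arms and their docking sites, the nexin-dynein links, the radial spokes, the central pair, proteins inside the doublet microtubules, and the cytoplasmic factors that assemble dynein arms. They were taken by symbol from the 47069 genes of the count table, and all 45 were found there, each with counts in at least 1 lung. Their RNA was measured by sequencing of whole lungs of C57BL/6 mice at embryonic day 15.5 (E15.5), namely 3 lungs of wild-type (WT) and 3 of conditional knockout (CKO) embryos. The CKO genotype is Tgfbr2lox/flox/Tbx4-rtTA/Teto-Cre for replicates 1 and 2 and Tgfbr2flox/flox/Tbx4-rtTA/Teto-Cre for replicate 3, as the labels spell it. A Tbx4-driven rtTA, which acts in lung mesenchyme, switches on Cre under doxycycline. The labels give doxycycline as 1 mg/ml in the drinking water, with more in the food, from E6.5 to E15.5. The 1 mg/ml from E6.5 is given for the WT lungs as well as for the CKO lungs. The cells that carry motile cilia are epithelial. Whether the WT lungs carry either transgene, and whether lungs share a litter, is stated in none of the labels. P-values set the group difference against the spread between lungs within each group, and they speak for these 6 lungs only.

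A motile cilium beats because dynein arms, fixed along 9 outer doublet microtubules, walk on the neighbouring doublet, while spokes, links and the central pair turn that sliding into bending. In the lung, these cilia cover the multiciliated cells of the airway, which arise among the airway progenitors in the second part of gestation and move mucus after birth. Foxj1 and RFX factors switch on most axoneme genes in these cells. Intraflagellar transport and BBSome proteins build and serve primary cilia too, which most cells of the lung have.

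RFX factors bind the X-box, an imperfect inverted repeat, and the promoters of some of the 45 genes hold its letters. RefSeq promoter windows (GRCm38.p6, from 250 bases before to 50 after a start) were matched by symbol for 38 of the 45 genes. Armc4, Dnaaf1, Dnah3, Lrrc6, Rsph1, Rsph4a and Tppp3 had no entry. The full X-box searched, GTNNCC and then GGNNAC after a gap of 2 bases, reads the same on both strands and stood in a window of 5 of 38 genes (13.2%), against 2.16% of all 27025 genes with a window. A single arm of it, GTTGCC, read on either strand and counted also where it lies inside a full site, stood in 17 of 38 genes (44.7%) against 14.1%. The forkhead core GTAAACA, on either strand, stood in 2 of 38 genes (5.26%), Ak7 and Tekt3, against 4.05%. A match is a description of the letters and no measurement of binding.

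Stretches of 120 bases, from 110 bases before the start to 10 after it and 5′ to 3′ on the gene's strand, are shown for 5 genes whose RNA behaved differently, with X-box letters in capitals. Tekt1 (chr11:72361873-72361992, minus strand) and Lrrc23 (chr6:124779718-124779837, minus strand) hold single arms. Ccdc151 (chr9:22002625-22002744, minus strand), Pifo (chr3:106001488-106001607, minus strand) and Rsph9 (chr17:46144191-46144310, minus strand) hold full ones. Tekt1 and Pifo each have another window, at another start, that held none of the motifs searched. The Pifo stretch shown is from the start further inside the gene.
Tekt1: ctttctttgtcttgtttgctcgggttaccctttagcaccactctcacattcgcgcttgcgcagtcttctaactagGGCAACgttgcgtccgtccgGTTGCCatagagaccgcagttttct
Lrrc23: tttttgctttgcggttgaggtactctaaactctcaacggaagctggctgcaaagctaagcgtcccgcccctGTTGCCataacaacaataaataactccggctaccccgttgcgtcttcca
Ccdc151: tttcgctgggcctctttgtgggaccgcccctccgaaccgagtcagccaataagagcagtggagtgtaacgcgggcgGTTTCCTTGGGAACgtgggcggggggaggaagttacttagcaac
Pifo: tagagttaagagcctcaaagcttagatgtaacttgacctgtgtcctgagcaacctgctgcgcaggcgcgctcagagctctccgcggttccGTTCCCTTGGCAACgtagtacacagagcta
Rsph9: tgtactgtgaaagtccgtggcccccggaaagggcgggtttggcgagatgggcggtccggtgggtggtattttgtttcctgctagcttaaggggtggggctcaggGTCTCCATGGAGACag

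The remaining full sites lay in windows of Tekt4 and Zmynd10, and the Pifo site also contains a single arm. Values below set these letters beside the RNA: Tekt1 fell in the CKO lungs, Lrrc23, Ccdc151 and Pifo were low in 2 of the 3 CKO lungs, and Rsph9 was level across all 6 lungs.

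The lungs differed before any axoneme gene is considered. Gene counts summed to 31983717 to 51572845 per lung. By Xist and Y-linked genes, replicate 1 was a female lung in each group and replicates 2 and 3 were male. On the leading principal component of all genes, the female CKO lung lay at -2.41, between the WT lungs (-34.4 to -28.1) and the male CKO lungs (45.3 and 50.8). The targeted gene, Tgfbr2, had a normalised read count (CPM, which uses the effective library size) of 199.7 to 230.0 in WT and of 213 to 239 in CKO lungs, a count over the whole gene and all cells that checks nothing about the deletion. Because whole lungs were sequenced, fewer multiciliated cells and less RNA per cell cannot be told apart in any value below.

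Of the 45 genes, 40 passed the filter on low counts and were tested. Armc4, Ccdc153, Tekt3, Dnaaf1 and Lrrc6 did not. Per kilobase of exon, the 40 tested genes had a median WT level of 0.612 CPM, against 4.40 CPM over all tested genes. Tppp3, a tubulin-binding protein that is also made by cells without motile cilia, had the highest level per kilobase in WT lungs, 12.1 ± 1.51 CPM (SD, n = 3). Tekt1 followed with 4.89 ± 0.45 CPM per kilobase, and Dynlrb2, a light chain of dynein, with 4.19 ± 3.56 CPM per kilobase. Lrrc23, a radial spoke protein, had 4.09 ± 4.24 CPM per kilobase. The last 2 do not differ from Tekt1 beyond their spread, since 1 WT lung carried most of their RNA.

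Setting CKO beside WT lungs asks how the ciliary genes of the whole lung differ when Tgfbr2 is targeted in the mesenchyme. Most axoneme RNAs had a lower mean in the CKO lungs, but few passed the test. The log2 fold change was below 0 for 35 of the 40 tested genes (51.1% of all tested genes), with a median of -1.26 against -0.0046 over all genes. By edgeR's quasi-likelihood test with Benjamini-Hochberg adjustment over all 17843 tested genes, Tekt1, Efhc2 and Ak7 fell and Tppp3 and Dnah8 rose (adjusted p under 0.05). These are 3 of 40 lower, where 3.08% of all genes were called lower, and 2 of 40 higher, where 5.64% were called higher. An unadjusted p under 0.05 was reached by 22 of the 40. The share of all tested genes at that level was not computed, here or for the unadjusted counts below. Such counts therefore cannot be judged against all genes. WT and CKO lungs did not overlap in 10 genes with the CKO lungs lower (14.4% of all genes) and in 3 with the CKO lungs higher (15.5%).

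**Figure D1:**
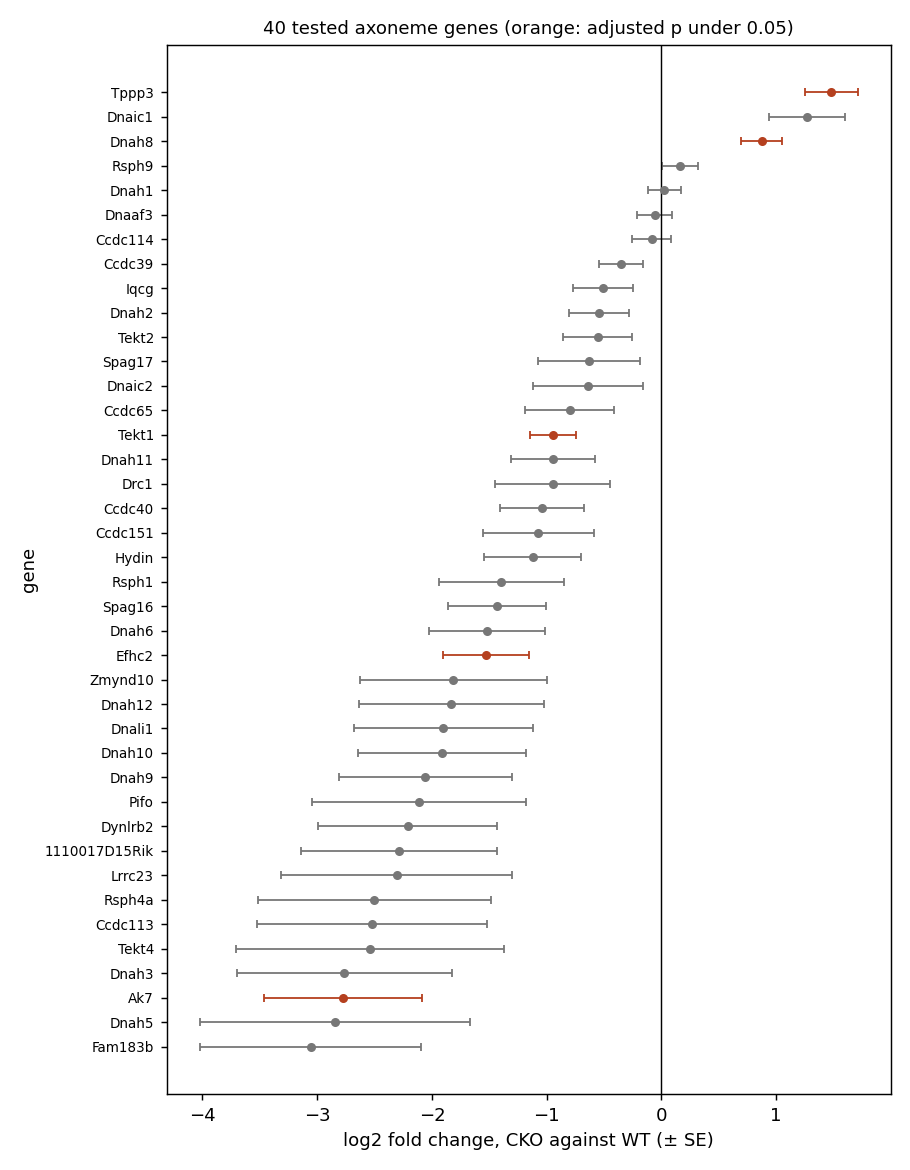
Log2 fold change of CKO against WT lungs (points, with bars of 1 SE; n = 3 lungs per group) for the 40 tested axoneme genes, in order of size; orange points have an adjusted p under 0.05. Most points lie to the left of 0 with long bars, Tekt1 is called with a short bar at -0.94, and Tppp3, Dnaic1 and Dnah8 lie to the right.

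A pattern of single lungs recurred from gene to gene. WT replicate 3 had the highest level of the 6 lungs in 40 of the 45 genes, and in 35 of the 40 tested (17.4% of all tested genes). CKO replicates 2 and 3 held the 2 lowest levels in 35 of 45 genes, and in 32 of the 40 tested (18.4%). Both were true of the same 35 genes, 32 of them tested (5.25%). CKO replicate 1 lay within the WT range in 31 of 45 genes, and in 27 of the 40 tested (46.5%). Scaled to the WT mean of each gene, the median over the 45 genes was 55.1%, 63.7% and 176% in WT replicates 1 to 3 and 61.5%, 28.4% and 30.3% in CKO replicates 1 to 3.

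WT replicate 3 thus stood apart within its own group. Its level was at least 2 times the mean of the other WT lungs in 31 of 45 genes, and in 26 of the 40 tested, against 1.92% of all tested genes. The median ratio was 2.84 and the range 1.04 to 7.09. Between the female lungs, CKO replicate 1 and WT replicate 1, the median ratio was 1.17 (range 0.528 to 2.95), and 33 of 45 genes were at or above the WT level in the CKO lung, 29 of them among the 40 tested (50% of all tested genes). Among the male lungs alone, replicates 2 and 3 of each group, 28 of 43 tested axoneme genes were called lower (5.81% of all genes) and 3 higher (7.54%), with a median log2 fold change of -1.92 over the 43. With 1 female lung per group, sex and the position of CKO replicate 1 cannot be told apart.

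**Figure D2:**
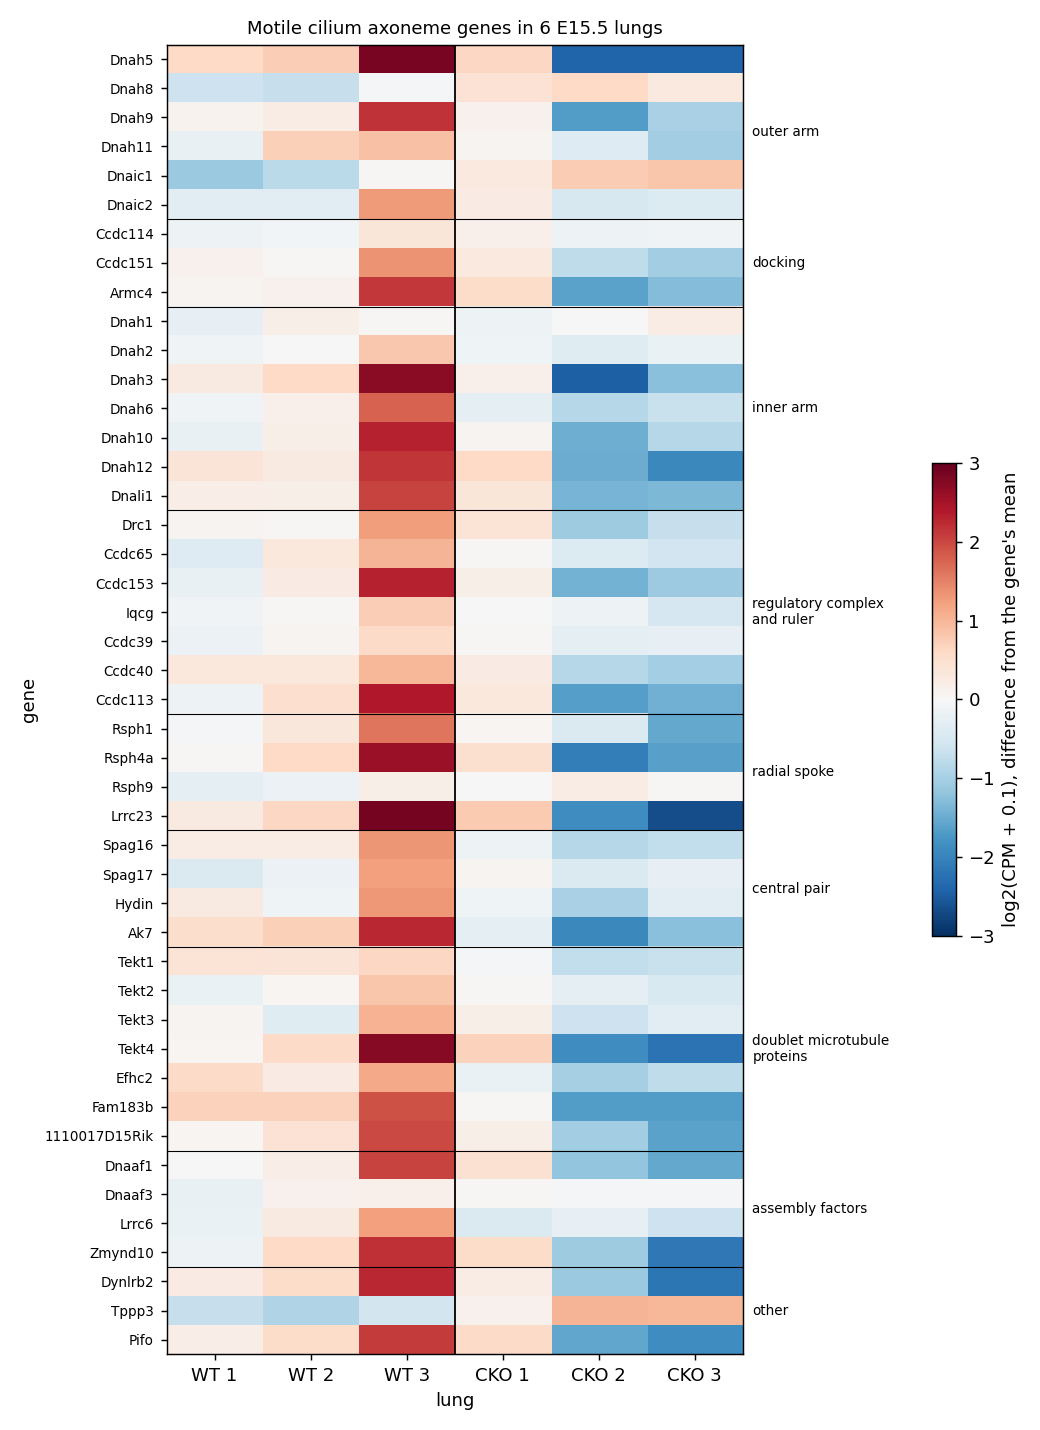
Level of each of the 45 axoneme genes (rows, grouped by structure) in the 6 lungs (columns), as log2(CPM + 0.1) minus the gene's mean over the lungs; red is above and blue below that mean. WT replicate 3 is the reddest column, CKO replicates 2 and 3 are blue in most rows, CKO replicate 1 resembles WT replicates 1 and 2, and Dnah8, Dnaic1 and Tppp3 run the other way.

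Among outer arm dyneins, the motors that give the cilium its force, heavy and intermediate chains did not move together. Dnah5, the main outer arm heavy chain of airway cilia, had 0.704, 0.779 and 3.75 CPM in WT lungs (here and below in the order of replicates 1 to 3), 0.722 CPM in CKO replicate 1 and no read in CKO replicates 2 and 3. A count of 0 allows up to 0.0810 and 0.0712 CPM in those lungs, the level of 3 counts. CKO replicate 1 was level with WT replicates 1 and 2 while WT replicate 3 was high, and the test over all 6 lungs did not call Dnah5 (log2 fold change -2.85 ± 1.18 SE, adjusted p = 0.178). Dnah9, another heavy chain, had 0.704, 0.779 and 3.29 CPM in WT and 0.722, 0.135 and 0.285 CPM in CKO lungs, the same order of lungs. Dnah11, the heavy chain used nearer the base of the cilium, varied less, from 2.37 to 5.23 CPM in WT and from 1.31 to 2.99 CPM in CKO lungs. Cdca7l, with 13522 counts against 802 for Dnah11, overlaps 4.44% of the Dnah11 exons on the other strand. How reads from the shared bases were counted is not stated.

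Dnah8, the outer arm heavy chain best known from sperm flagella, rose. Its levels were 8.06, 7.67 and 12.0 CPM in WT and 16.8, 18.9 and 15.2 CPM in CKO lungs. The groups did not overlap, CKO replicate 1 was as high as the other CKO lungs, and the rise was 1.83-fold (log2 fold change 0.87 ± 0.18 SE, edgeR adjusted p = 0.026). Dnaic1, an outer arm intermediate chain, had 0.608, 0.779 and 1.48 CPM in WT and 1.79, 2.54 and 2.66 CPM in CKO lungs. Every CKO lung lay above every WT lung, and the difference just missed the threshold (log2 fold change 1.27 ± 0.33 SE, edgeR adjusted p = 0.056). The second intermediate chain, Dnaic2, works in a pair with Dnaic1 but had 1.44, 1.44 and 4.59 CPM in WT and 2.19, 1.27 and 1.35 CPM in CKO lungs. There the groups overlapped and WT replicate 3 alone was high.

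Docking proteins tie the outer arm to the doublet. Ccdc151 (also shown by its promoter above) had 1.89, 1.75 and 4.54 CPM in WT and 2.14, 0.972 and 0.784 CPM in CKO lungs, with the male CKO lungs lowest. Ccdc114 was level, at 4.90, 5.16 and 7.06 CPM in WT and 6.10, 4.91 and 5.13 CPM in CKO lungs (log2 fold change -0.09 ± 0.17 SE, edgeR adjusted p = 0.805). Armc4 was counted at 7, 12 and 56 reads in WT and 14, 0 and 1 reads in CKO lungs and was not tested.

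The inner arm dyneins, which shape the bend, split into a variable and a level part. Dnah3, a single-headed inner arm heavy chain, had 0.736, 0.954 and 4.41 CPM in WT and 0.672, 0.027 and 0.190 CPM in CKO lungs. CKO replicate 1 was close to WT replicate 1 and the male CKO lungs were low, and the fold change was not called (log2 -2.77 ± 0.94 SE, edgeR adjusted p = 0.113). Lyrm1 overlaps 10.5% of the Dnah3 exons on the other strand, and how reads from the shared bases were counted is not stated. Dnah10 showed the same order at 1.34, 1.79 and 8.18 CPM in WT and 1.67, 0.513 and 0.831 CPM in CKO lungs (log2 fold change -1.91 ± 0.73 SE, edgeR adjusted p = 0.153). Dnah12 did too, with 1.47, 1.34 and 5.20 CPM against 1.72, 0.324 and 0.214 CPM (log2 fold change -1.83 ± 0.81 SE, edgeR adjusted p = 0.204). In both, WT replicate 3 was the one high lung. Dnah6 and Dnali1, a light chain of the inner arm, also had their highest level in WT replicate 3 and their lowest in the male CKO lungs. Dnah2, which pairs with Dnah10 in the double-headed inner arm, ranged from 2.94 to 5.67 CPM in WT and from 2.43 to 2.89 CPM in CKO lungs, so 2 genes of 1 structure were counted with the same high lung but different spreads.

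Dnah1, another inner arm heavy chain, had the highest level per kilobase of its class, 0.672 ± 0.097 CPM in WT lungs, and hardly varied. Its levels were 7.39, 9.89 and 9.02 CPM in WT and 7.84, 8.72 and 10.2 CPM in CKO lungs (log2 fold change 0.02 ± 0.14 SE, edgeR adjusted p = 0.943). WT replicate 3 was not high and no CKO lung was low. The direction of a change this small turned with the processing.

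The nexin-dynein regulatory complex links neighbouring doublets, and Ccdc39 and Ccdc40 form the ruler that spaces the arms. Ccdc39 had the highest level per kilobase of this class, 1.94 ± 0.54 CPM, with 11.1, 13.3 and 18.9 CPM in WT and 13.0, 10.3 and 10.6 CPM in CKO lungs. Its partner Ccdc40 had 3.84, 3.85 and 6.26 CPM in WT and 3.66, 1.65 and 1.47 CPM in CKO lungs. The ruler pair thus shared a high WT replicate 3 and low male CKO lungs, over a narrower range in Ccdc39. Ttc14, with 36274 counts over the 6 lungs against 3236 for Ccdc39, overlaps 16.9% of the Ccdc39 exons on the other strand, and none of the sources says whether reads were counted by strand. Iqcg shares 48.1% of its exons with Lrch3 in the same way, so its level is uncertain. Drc1, Ccdc65 and Ccdc113 had WT replicate 3 highest and the male CKO lungs lowest, and Ccdc113 had 1 and 2 counts in those male lungs.

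Radial spokes carry signals from the central pair to the arms. Lrrc23 had 2.50, 3.21 and 15.6 CPM in WT and 3.59, 0.486 and 0.237 CPM in CKO lungs, a range of 65.6-fold. WT replicate 3 was 5.45 times the mean of the other WT lungs, and CKO replicate 1 was above both of these. The group difference was not called (log2 fold change -2.31 ± 1.01 SE, edgeR adjusted p = 0.200). Rsph4a, a spoke head protein, had 0.448, 0.701 and 3.09 CPM in WT and 0.648, 0.027 and 0.071 CPM in CKO lungs. Rsph9, of the same spoke head, was level at 3.52, 3.76 and 4.81 CPM in WT and 4.31, 4.94 and 4.32 CPM in CKO lungs (log2 fold change 0.16 ± 0.16 SE, edgeR adjusted p = 0.565). Its promoter holds the full X-box shown above.

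In the central pair class, Ak7, an adenylate kinase of motile cilia, fell. Its levels were 0.896, 1.03 and 3.22 CPM in WT and 0.473, 0.081 and 0.190 CPM in CKO lungs. All 3 CKO lungs lay below all WT lungs, 6.85-fold lower in the fit (log2 fold change -2.78 ± 0.69 SE, edgeR adjusted p = 0.046), on 3 to 19 counts per CKO lung. Over the alternative fits described below, Ak7 kept its call in 6 and lost it in 10. The losses include scaling to total gene counts (edgeR adjusted p = 0.051) and limma-voom (adjusted p = 0.064). Ak7 was also the class member with the highest WT level per kilobase, 0.408 ± 0.310 CPM. Spag16 and Hydin, proteins of the central pair apparatus, were lowest in the male CKO lungs and were not called over all 6 lungs by edgeR (adjusted p = 0.080 and 0.149), while Spag16 was called by DESeq2 (adjusted p = 0.038). Spag17 had 1.44, 1.73 and 4.78 CPM in WT and 2.09, 1.43 and 1.64 CPM in CKO lungs, which overlap. Wdr3, with 14798 counts against 557 for Spag17, overlaps 9.66% of the Spag17 exons on the other strand. How reads from these shared bases were counted is not stated.

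Tektins form filaments inside the wall of the doublet. Tekt1 fell and was the least variable of the called genes in WT lungs, with 7.58, 7.44 and 8.78 CPM there and 5.53, 3.32 and 3.54 CPM in CKO lungs. The groups did not overlap, CKO replicate 1 lay between the WT and the male CKO lungs, and the level was 1.92-fold lower (log2 fold change -0.94 ± 0.20 SE, edgeR adjusted p = 0.030). Its promoter carries 2 single arms of an X-box, as shown above. Efhc2, a protein from inside the doublet, fell 2.89-fold, from 0.928, 0.720 and 1.41 CPM in WT to 0.498, 0.243 and 0.309 CPM in CKO lungs (log2 fold change -1.53 ± 0.37 SE, edgeR adjusted p = 0.044). Here too every CKO lung lay below every WT lung. Efhc2 kept its call in 9 alternative fits and lost it in 7, among them limma-voom (adjusted p = 0.052). Tekt4 and Fam183b were almost without reads in the male CKO lungs. Tekt4 had 1 and 0 counts in CKO replicates 2 and 3. Fam183b had 13, 21 and 50 counts in WT and 9, 0 and 0 counts in CKO lungs. It was not called over all 6 lungs by edgeR (adjusted p = 0.089). DESeq2, limma-voom and edgeR with no filter on low counts called Fam183b lower. Tekt2, by contrast, ranged only from 1.21 to 3.11 CPM over all lungs.

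Assembly factors fold and preload the dynein arms in the cytoplasm. Dnaaf3 had the highest level per kilobase of the class, 1.58 ± 0.235 CPM in WT lungs, and was level at 2.91, 3.80 and 3.84 CPM in WT and 3.51, 3.27 and 3.37 CPM in CKO lungs. Zmynd10, which works in the same process, had 1.06, 1.83 and 5.73 CPM in WT and 1.77, 0.513 and 0.190 CPM in CKO lungs. Dnaaf1 was counted at 6, 12 and 49 reads in WT and 12, 1 and 0 reads in CKO lungs, the same order on few reads. Taf1c overlaps 20.7% of the Dnaaf1 exons on the other strand.

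Of the remaining genes, Tppp3 rose most. It had 22.5, 19.4 and 25.0 CPM in WT and 39.7, 74.6 and 72.6 CPM in CKO lungs. The groups did not overlap, and CKO replicate 1 lay between WT and the male CKO lungs; the rise was 2.79-fold (log2 fold change 1.48 ± 0.23 SE, edgeR adjusted p = 0.011). Dynlrb2 had 1.06, 1.32 and 4.61 CPM in WT and 1.05, 0.351 and 0.119 CPM in CKO lungs, in the order of most axoneme genes (log2 fold change -2.21 ± 0.78 SE, edgeR adjusted p = 0.125). Pifo, a protein of the ciliary base, had 83 counts in WT replicate 3 and 2 and 1 counts in the male CKO lungs.

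**Figure D3:**
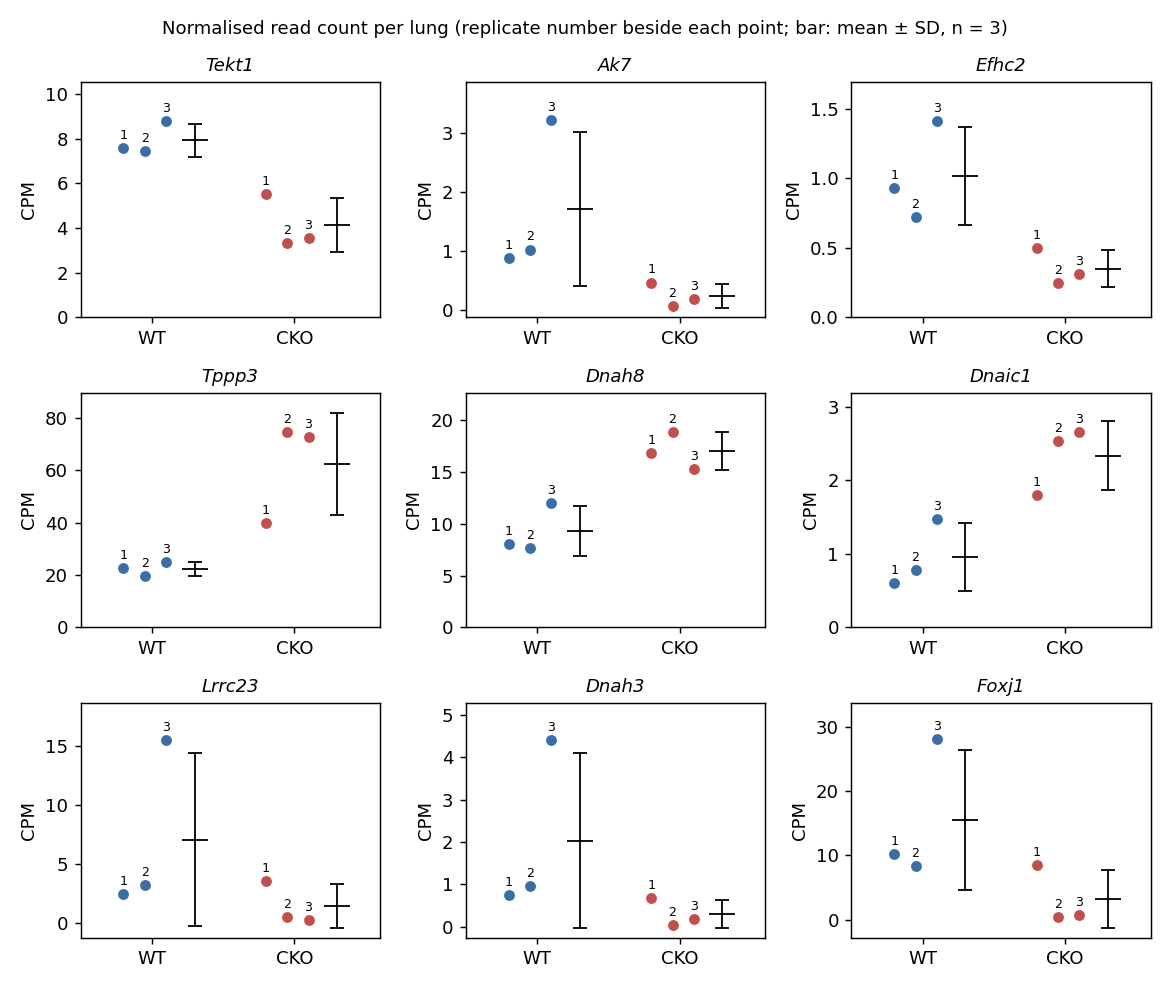
Normalised read count (CPM, linear axes that differ between panels) of 8 axoneme genes and of Foxj1 in each lung, WT in blue and CKO in red, with the replicate number beside each point and the mean ± SD (n = 3) as bars. Tekt1, Ak7 and Efhc2 have all CKO lungs below all WT lungs, Tppp3, Dnah8 and Dnaic1 have them above, and Lrrc23, Dnah3 and Foxj1 have 1 high WT lung and 2 low CKO lungs.

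Variation over the 6 lungs also sorted the genes. In 21 of the 45 genes the highest lung was at least 10 times the lowest or a lung had no read, and 17 of these were among the 40 tested (1.86% of all tested genes). Only Dnah1, Rsph9, Ccdc114, Dnaaf3 and Ccdc39, 5 of 45, varied less than 2-fold, against 78.2% of all tested genes. Of these 5, Rsph9 holds a full X-box in its window, and no single arm or forkhead core was found in the windows of Dnah1, Ccdc114, Dnaaf3 or Ccdc39. The windows of Dnah8 and Dnaic1 held none of the 3 motifs. Nor did the window of Efhc2, which was called lower. The same held for Dnah5, Dnah9, Dnah12, Dnali1 and Ccdc40, whose levels were lowest in the male CKO lungs. The relation of motifs to levels was not tested. In CKO replicates 2 and 3, 11 of the 45 genes had 3 counts or fewer in each lung.

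The calls depended on which lungs were included. Without CKO replicate 1, 20 of 41 tested axoneme genes were called lower (6.51% of all genes) and 3 higher (9.41%), with a median log2 fold change of -1.63 over the 41; the 20 include Tekt1, Efhc2 and Ak7. Leaving out WT replicate 1, WT replicate 2 or CKO replicate 2 left 0 axoneme genes called by edgeR, with 33, 25 and 10 at an unadjusted p under 0.05 and with 0.712%, 0.497% and 0.493% of all genes called lower and 1.45%, 0.894% and 1.16% called higher. Leaving out WT replicate 3 left Tppp3, Dnah8 and Dnaic1 called higher (6.88% of all genes) and 0 lower (4.49%), and without CKO replicate 3 Tppp3 alone was called higher (1.79%) and 0 lower (0.867%), with 8 and 9 at an unadjusted p under 0.05 in these fits. No gene kept its call in all 6 of these fits: the largest edgeR adjusted p was 0.067 for Tppp3, 0.112 for Dnah8, 0.119 for Tekt1, 0.163 for Ak7 and 0.166 for Efhc2. DESeq2 called 11 of 44 lower (5.41% of all genes) and 3 higher (7.95%), and edgeR with no filter on low counts called 10 of 45 lower (2.91%) and 3 higher (4.16%). The 17Feb16 run alone gave 1 of 27 tested lower, Dnah9 (3.16% of all genes), and 1 higher, Tppp3 (5.37%). Tekt1 and Dnah8 were not called in that run (edgeR adjusted p = 0.080 and 0.081). In the authors' deposited table, 31 of 44 axoneme genes were lower and 3 higher at an adjusted p under 0.05, where 5.09% and 6.96% of its 19683 genes were; the sources do not say how the runs of a lung entered it.

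Several regulators of the multiciliated cell were high and low in the same lungs. Foxj1, the forkhead factor of the motile cilium programme, had 10.2, 8.41 and 28.1 CPM in WT and 8.49, 0.459 and 0.736 CPM in CKO lungs (log2 fold change -2.27 ± 0.95 SE, edgeR adjusted p = 0.185). Mcidas, which starts the multiciliated fate with Gmnc, had 3.90, 4.65 and 10.7 CPM in WT and 3.79, 0.135 and 0.261 CPM in CKO lungs. Both had CKO replicate 1 near WT replicates 1 and 2, and the male CKO lungs far below. Myb, which acts early in the same cells, had 13.7, 13.1 and 20.8 CPM in WT and 10.5, 3.51 and 3.44 CPM in CKO lungs, and its groups did not overlap (log2 fold change -1.45 ± 0.43 SE, edgeR adjusted p = 0.077). Of the 15 regulators 0 were called by edgeR and by DESeq2 and 2 were called lower by limma-voom. With edgeR 6 had an unadjusted p under 0.05, and among the male lungs alone 9 of 15 were called lower. E2f4, which Mcidas and Gmnc work with, had 75.7 to 78.8 CPM in WT and 69.9 to 72.3 CPM in CKO lungs. Rfx3, an RFX factor, had 44.0 to 51.2 and 51.0 to 51.7 CPM, and neither lost most of its RNA in any lung.

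Other genes of the axoneme that are not among the 45, listed from their known place in the cilium, had a median nearer to 0. Of 66 measured, 58 were tested, 1 was called higher and 0 lower, with 11 at an unadjusted p under 0.05. Limma-voom called 1 lower and DESeq2 4. Their median log2 fold change was -0.27, and 48 of the 58 were below 0 (51.1% of all tested genes). The order of lungs seen in the 45 genes recurred here. WT replicate 3 was highest in 40 of the 58 (17.4% of all tested genes). CKO replicates 2 and 3 held the 2 lowest levels in 31 of the 58 (18.4%). The called gene, Tekt5, a tektin known from sperm flagella, had 0.928, 0.915 and 1.30 CPM in WT and 2.42, 3.19 and 3.70 CPM in CKO lungs (log2 fold change 1.56 ± 0.23 SE, edgeR adjusted p = 0.010). Of 11 further assembly factors tested 2 were called lower, Ruvbl2 and Dnaaf5, both by small amounts (log2 fold change -0.28 ± 0.06 SE and -0.25 ± 0.06 SE, edgeR adjusted p = 0.037 and 0.046). Ruvbl2 is a chaperone ATPase that all cells make.

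The shared machinery of primary and motile cilia stayed near its WT level. Of 32 intraflagellar transport genes, edgeR, DESeq2 and limma-voom called 0 in either direction, and 5 had an unadjusted edgeR p under 0.05. Their summed level was 1147 to 1192 CPM in WT and 1155 to 1165 CPM in CKO lungs, and the median log2 fold change was -0.02. The 9 BBSome genes gave 0 calls by the same 3 tools, 0 at an unadjusted p under 0.05 and a median of -0.03. No test compared these lists with the axoneme genes.

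**Figure D4:**
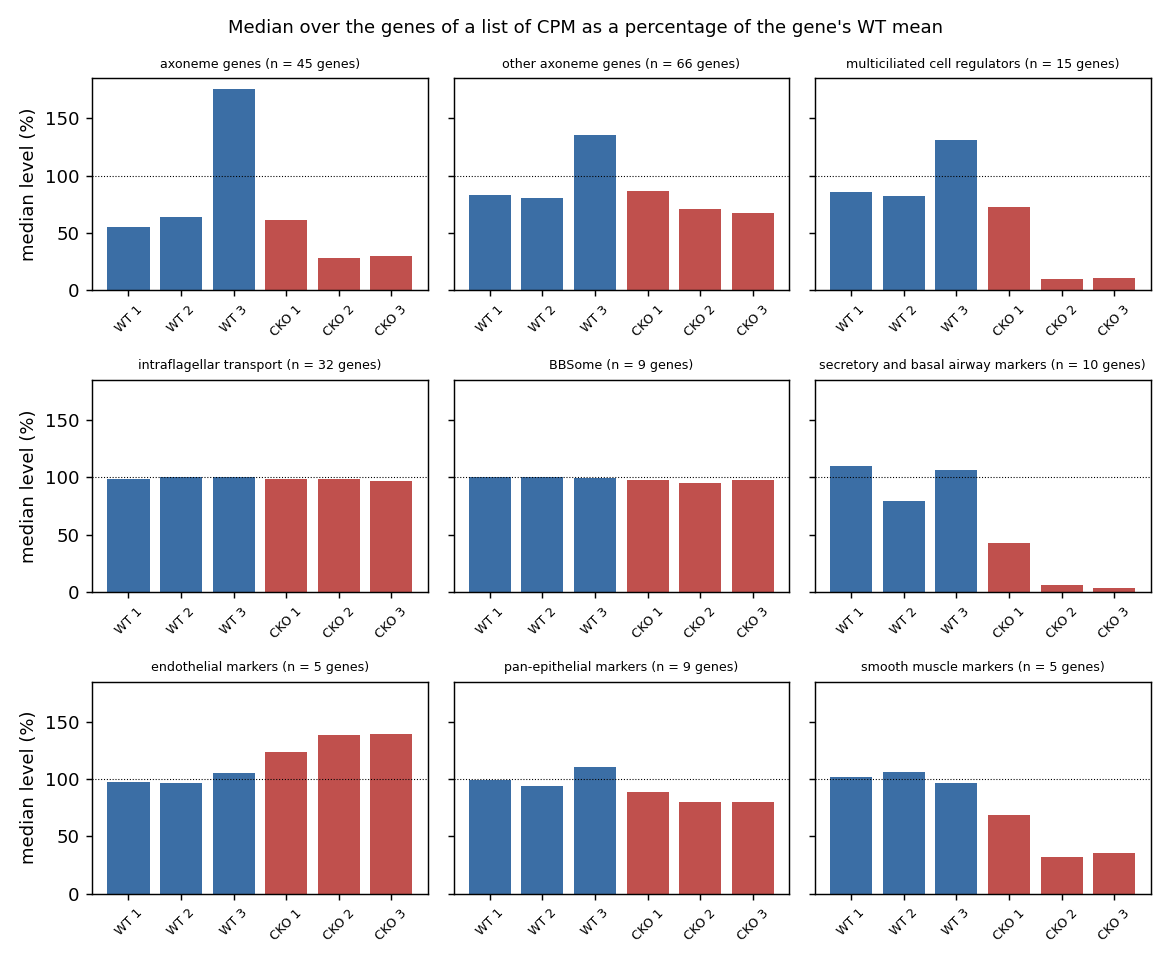
Median over the genes of a list of the level in each lung, as a percentage of each gene's WT mean (bars; WT in blue, CKO in red; dotted line at 100%), for axoneme genes, related gene lists and cell type markers. Axoneme genes and multiciliated regulators show a high WT replicate 3 and low CKO replicates 2 and 3, intraflagellar transport and BBSome genes stay near 100%, and airway and smooth muscle markers are below the WT lungs in all CKO lungs. Other axoneme genes also have WT replicate 3 highest and CKO replicates 2 and 3 lowest, over a narrower range.

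Markers of other cells also differed between the groups, but not always in the same order of lungs. All 10 markers of secretory and basal airway cells, which share progenitors with multiciliated cells, were measured, 7 were tested and 4 were called lower (Sox21, Upk3a, Cyp2f2 and Krt15). Their summed level was 75.1 to 115 CPM in WT lungs, and in the CKO lungs 40.0, 6.29 and 9.28 CPM, so CKO replicate 1 was again the nearest to WT but here below it. Upk3a had no read in CKO replicate 3. Among neuroendocrine genes, Insm1, a transcription factor, had 0.864 to 1.23 CPM in WT and 0.081 to 0.149 CPM in CKO lungs (log2 fold change -3.11 ± 0.33 SE, edgeR adjusted p = 0.0032). Pcsk1, a prohormone convertase, had 0.876 to 1.41 and 0.054 to 0.149 CPM (log2 fold change -3.55 ± 0.41 SE, edgeR adjusted p = 0.0044). Both kept the call with any 1 lung left out (largest edgeR adjusted p = 0.025 and 0.030), and CKO replicate 1 was low with the other CKO lungs. WT replicate 3 was not the lung apart in the airway markers, where the median stood at 110%, 79.5% and 106% of the WT mean in WT replicates 1 to 3.

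Markers of the epithelium in general had closer levels in the 6 lungs. Of 9 pan-epithelial markers, all tested, Epcam and Krt18 were called lower, and the summed level was 1323 to 1497 CPM in WT and 1134 to 1290 CPM in CKO lungs. Of 8 distal markers Sox9 and Etv5 were called lower, with sums of 1511 to 2074 CPM and 1092 to 1394 CPM. Against these, endothelial (4 of 5), immune (3 of 5) and erythroid (4 of 6) markers were called higher, and their sums did not overlap between the groups: 1010 to 1101 CPM in WT and 1243 to 1407 CPM in CKO lungs for endothelium, 59.4 to 61.7 and 75.8 to 115 CPM for immune cells, and 1192 to 1659 and 2045 to 2925 CPM for red cells. Smooth muscle markers, 2 of 5 called lower, summed to 1051 to 1122 CPM in WT and to 746, 416 and 406 CPM in CKO replicates 1 to 3. With 1 lung left out, edgeR called 0 to 6 airway, 0 to 5 smooth muscle, 0 to 5 pan-epithelial and 0 to 2 distal markers lower, and 1 to 5 endothelial, 0 to 5 immune and 0 to 6 erythroid markers higher; the highest airway, smooth muscle, pan-epithelial, endothelial, immune and erythroid counts came without CKO replicate 1. The part of these cell types in the axoneme values was not tested.

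Fibroblast markers went both ways, with Tcf21 called higher and Wnt2 and Pdgfra lower, and of 6 mesothelial markers Upk3b was called higher. Striated muscle markers (4 of 7 tested) and neuron and glia markers (6 of 6 tested) gave 0 calls by edgeR and DESeq2, with 1 and 0 at an unadjusted edgeR p under 0.05, and limma-voom called 1 striated muscle marker lower. Striated muscle sums were 66.5 to 88.3 CPM in WT and 23.0 to 65.3 CPM in CKO lungs, and neuron and glia sums 11.2 to 16.4 and 13.1 to 15.7 CPM. Reads outside annotated features, another measure that differed between lungs, made up 14.5% to 16.1% in WT lungs, 17.0% in CKO replicate 1 and 11.8% and 12.8% in CKO replicates 2 and 3. With that share as a covariate, Tppp3 and Dnah8 were called higher (4.15% of all genes) and Tekt1 lower (2.7%), and Efhc2 and Ak7 were not called (log2 fold change -1.42 and -2.70, edgeR adjusted p = 0.074 and 0.066).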

How the data were processed

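Per the submitters' processing notes, the authors used cutadapt 1.13, Trimmomatic 0.35, STAR 2.5.2b, HTSeq 0.6.1p2 and the genome GRCm38. The authors deposited raw counts per gene for 2 runs of each lung, and an alignment table with counts of reads per run. Their own comparison was deposited as log2 fold changes with p-values, unadjusted and adjusted (edgeR 3.16.5 per the same notes). Another 36 columns of per-sample values were not used. No source used here states the strand setting.

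The 2 runs of a lung were summed (chi-square per degree of freedom 1.42 to 1.50 between runs, 8.46 to 45.6 between lungs of a group). Genes were tested over all 6 lungs with edgeR 4.0.16 in R 4.3.3 (quasi-likelihood F test, TMM scaling, a minimum count of 10 in filterByExpr, genotype as the one factor, Benjamini-Hochberg adjustment over 17843 genes, threshold 0.05). The common biological coefficient of variation was 0.127. The SE of an edgeR log2 fold change was derived from the test. It is the size of the unshrunken log2 coefficient divided by the square root of the F statistic. The fold change beside it is the shrunken value that edgeR reports. CPM use effective library sizes. Exon lengths, positions and overlaps are from GENCODE M21 (GRCm38), which held 98.8% of the gene identifiers; the 92 spike-ins were left out. Depth of 31983717 to 51572845 counts sets 3 counts at 0.0584 to 0.0960 CPM, a floor that covers counting error only.

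The 45 genes and the 17 other lists were chosen with earlier results of these data known, and 11 listed symbols were not matched. The result of 1 list is not reported here as a whole. Full statistics are given for called genes and for the 5 largest and 5 smallest log2 fold changes among tested genes whose mean is 1 CPM or more; per-lung values also for the gene with the highest WT level per kilobase in each class and for Foxj1; from other lists, for up to 4 genes with the smallest p. Full statistics of Dnah5 and Ccdc114 and further per-lung values, which set partners of one structure side by side or show Mcidas, Rfx3 and Fam183b, were chosen after their values were seen. Alternatives were other scalings, no filter, DESeq2 1.42.0, limma-voom (limma 3.58.1), single runs, each lung left out, male lungs only, and covariates.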

Additional observations from a re-analysis of the deposited data

How the results depend on the processing

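Over the 40 genes tested in all 6 lungs, or the 27 of them that the 17Feb16 run tested, the median log2 fold change was below 0 in all 17 alternatives, from -1.88 (male lungs only) to -0.71 (without WT replicate 3). Counts of calls moved. Axoneme genes called lower numbered 10 with no low-count filter, 11 with DESeq2, 28 in male lungs only, and 1 each with the 17Feb16 run alone and with the share of reads outside features as a covariate; that run alone called 1 higher. Over all genes, 549 were called lower, 884 without the filter, 991 with DESeq2 and 1051 in male lungs only. Other axoneme genes called lower numbered 2 without the filter, 4 with DESeq2, 12 in male lungs only, and 1 each with limma-voom, the 17Feb16 run, the replicate block and replicate 1 as a covariate.

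With 1 lung left out, all genes called higher ranged from 162 to 1713 and lower from 90 to 1185, axoneme genes higher from 0 to 3 and lower from 0 to 20, other axoneme genes higher from 0 to 1 and lower from 0 to 11, and intraflagellar transport genes higher from 0 to 1. The log2 fold change of Dnah1 turned to -0.054 in the 17Feb16 run and -0.060 with the read-share covariate and ranged from -0.077 to 0.12 with 1 lung left out, and that of Rsph9 turned to -0.040 in the 17Feb16 run. The cause was not tested.

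Replicate numbers are shared by the groups. To ask whether they pair lungs, the log2 CPM of each gene was taken as the deviation from its group mean. These deviations correlated by only 0.10, 0.09 and 0.04 between same-numbered lungs, not all over 0.1, so the numbers were not taken to pair lungs. With the replicate block, 3 axoneme genes were called higher and 3 lower, the added one Dnaic1 (edgeR adjusted p = 0.028), and 1087 genes were called higher and 693 lower in all.

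Depth limits the genes with 3 counts or fewer in a lung, where a fold change rests on few reads. Precision otherwise rests on 3 lungs per group and on CKO replicate 1.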
